A study of Mus musculus with 4 samples.

Results

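The Hox genes were taken as the rows of the deposited table whose symbol is Hoxa, Hoxb, Hoxc or Hoxd followed by a number and nothing else, which gave 39 of 24421 genes. They comprised 11 genes of the HoxA cluster, 10 of HoxB, 9 of HoxC and 9 of HoxD. The table came from polyadenylated RNA of 4T07, a murine mammary carcinoma line labelled with the strain Balb/cfC3H, harvested 48 h after plating. Of the 4 libraries, 2 carried the genotype label control and 2 the genotype label Six2 Overexpression, and both groups were cultured alike. For the overexpression, neither the vector and promoter nor the clonality is given in the sources used here. The labels do not say whether the 2 replicates of a group were separate cultures, so p-values rest on a spread between libraries that may be technical only.

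Hox genes encode homeodomain transcription factors that give cells their position along the body axis. They lie in 4 clusters that arose by duplication, and genes of the same number in different clusters are paralogues that can stand in for each other. Within a cluster the low-numbered genes are switched on early and in anterior tissue, and the high-numbered ones late and in posterior tissue. HOX proteins bind DNA together with TALE homeodomain cofactors of the PBX and MEIS families. Polycomb complexes keep the clusters silent, Trithorax complexes keep them active, and retinoic acid and the caudal proteins are among the signals that open them. In the mammary gland several Hox genes act in development, and paralogues Hoxa9, Hoxb9 and Hoxd9 are jointly needed for its growth in the mother. In the embryonic kidney the Hox11 paralogues act upstream of Six2, the homeobox gene named in the labels.

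The Six2 row held 0 reads in control 1 and control 2, 3 reads in Six2 replicate 1 (0.0285 RPKM) and 0 in Six2 replicate 2. The labelled overexpression is thus not seen in these values. Directions below compare libraries by their labels, Six2 minus control. RPKM, reads per kilobase and per unit of library depth, allow levels of different genes to be set side by side. The read totals, recovered from the steps between RPKM values, lay between 41881864 and 81524250. Where 0 reads were counted, counting error alone leaves room for up to 3. For a 1 kb gene that limit is 0.0368 to 0.0716 RPKM by library and 0.0139 RPKM over all 4. Of the markers of simple epithelium 5 of 6 reached 1 RPKM in at least 2 libraries, with Krt8 at 607 to 1060 RPKM. Epcam stayed under the limit. It was at 0.72 and 0.684 RPKM in the controls and at 0.214 and 0.0833 RPKM in Six2 replicates 1 and 2. The summed level of these 6 markers was 1890 and 1240 RPKM in the controls. It was 1660 and 998 RPKM in Six2 replicates 1 and 2. Krt8 and Krt18 reached 1 RPKM in every library, but Cdh1, Krt7 and Krt19 did so in the controls only. Cdh1, the epithelial cadherin, was at 14.6 and 8.4 RPKM in the controls and at 0.186 and 0.103 RPKM in Six2 replicates 1 and 2. In the same order of libraries, Krt7 was at 10.8, 8.67, 0.467 and 0.634 RPKM and Krt19 at 8.76, 4.26, 0.802 and 0.464 RPKM. In the limma-trend test described below Krt7 passed (adjusted p 0.0397), while Cdh1 (0.0592) and Krt19 (0.119) did not. Whether these differences bear on the Hox values was not tested. Vim and Fn1, markers of mesenchymal-like carcinoma cells, were both on, with a sum of 1710 to 1970 RPKM. Vim was at 1300 to 1550 RPKM. Fn1 was at 667 and 407 RPKM in the controls and at 287 and 206 RPKM in Six2 replicates 1 and 2. Markers of leukocytes (0 of 5) and endothelium (0 of 4) did not reach that level, and Kdr was at 0. Of the 5 fibroblast markers only Pdgfra did, at 4.78 to 8.85 RPKM, and Lum was at 0. In bulk RNA, fewer cells that express a gene and less of its RNA per cell cannot be told apart.

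On GRCm38 the HoxA genes spanned 105 kb of chromosome 6, all on the minus strand, with the low numbers at one end and Hoxa13 at the other. The HoxB genes spanned 174 kb of chromosome 11 (96194316 to 96368256), the HoxC genes 116 kb of chromosome 15 (102921103 to 103036852) and the HoxD genes 97 kb of chromosome 2 (74668310 to 74765142), all on the plus strand. Promoter sequences came from RefSeq on GRCm38.p6, whose table held 24 windows for 22 of the 39 genes. The sequences shown are the 250 bases before the start of Hoxa2 and Hoxa5, which were among the highest Hox genes in these cells, and of the run Hoxa9, Hoxa10 and Hoxa11, where a low gene, a high gene and a gene with 0 reads lie side by side. Capitals mark CG dinucleotides, the sites of DNA methylation, and each sequence is written 5′ to 3′ along the minus strand.
Hoxa2 (chr6:52164832-52165081, minus strand): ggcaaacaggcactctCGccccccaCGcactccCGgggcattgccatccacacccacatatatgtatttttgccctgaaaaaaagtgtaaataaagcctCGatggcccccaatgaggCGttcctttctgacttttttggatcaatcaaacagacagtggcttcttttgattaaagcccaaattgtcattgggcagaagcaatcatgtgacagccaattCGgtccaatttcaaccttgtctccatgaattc
Hoxa5 (chr6:52204588-52204837, minus strand): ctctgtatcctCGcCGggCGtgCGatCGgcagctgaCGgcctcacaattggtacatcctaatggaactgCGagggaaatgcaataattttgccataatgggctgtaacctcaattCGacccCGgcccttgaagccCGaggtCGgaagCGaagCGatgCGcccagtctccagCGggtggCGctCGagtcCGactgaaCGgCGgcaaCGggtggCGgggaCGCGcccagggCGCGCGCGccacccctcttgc
Hoxa9 (chr6:52227371-52227620, minus strand): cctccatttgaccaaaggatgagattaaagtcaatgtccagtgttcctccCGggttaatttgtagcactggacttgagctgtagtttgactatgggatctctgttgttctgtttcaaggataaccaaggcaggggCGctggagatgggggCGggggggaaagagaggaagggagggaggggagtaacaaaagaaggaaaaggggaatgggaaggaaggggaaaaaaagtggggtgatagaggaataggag
Hoxa10 outer start (chr6:52240855-52241104, minus strand): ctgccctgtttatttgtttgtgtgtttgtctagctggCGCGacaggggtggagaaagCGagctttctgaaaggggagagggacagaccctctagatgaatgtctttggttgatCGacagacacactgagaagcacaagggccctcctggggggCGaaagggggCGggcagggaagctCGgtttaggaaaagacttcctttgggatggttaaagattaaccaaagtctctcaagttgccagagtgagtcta
Hoxa10 inner start (chr6:52234940-52235189, minus strand): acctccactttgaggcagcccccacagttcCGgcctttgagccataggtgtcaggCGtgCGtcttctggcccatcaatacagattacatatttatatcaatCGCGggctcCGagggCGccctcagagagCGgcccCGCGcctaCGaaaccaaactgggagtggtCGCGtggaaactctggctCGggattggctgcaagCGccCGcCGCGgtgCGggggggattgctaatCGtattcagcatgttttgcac
Hoxa11 (chr6:52245811-52246060, minus strand): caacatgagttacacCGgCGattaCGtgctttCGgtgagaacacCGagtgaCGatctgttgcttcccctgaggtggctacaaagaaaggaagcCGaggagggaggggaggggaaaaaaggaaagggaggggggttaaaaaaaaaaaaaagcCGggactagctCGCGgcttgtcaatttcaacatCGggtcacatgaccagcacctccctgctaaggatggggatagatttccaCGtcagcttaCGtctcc
CG content differed widely within this set. The 250 bases before Hoxa5 held 28 CG and those before Hoxa2 held 6, although both genes stood near the top of the Hox levels. Before Hoxa9 there were 3. Hoxa10 has 2 RefSeq starts, an outer one with 7 CG before it and an inner one with 20, and the RPKM table does not separate their transcripts. The stretch before Hoxa11, from which no read was counted, held 13 CG.

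Over windows of 300 bases (250 before to 50 after the start), the 24 Hox windows had a median of 14.5 CG and a range of 4 to 45, against a median of 7 over all 32851 windows of the table. For 20 of the 24, the 50 bases after the start lay within a GENCODE transcript of the gene. The 7 windows of Hox genes that were on, as defined with the levels, came from 6 genes, with both starts of Hoxa10 counted. These windows had a median of 20 and a range of 9 to 29. The 17 windows of the other Hox genes had a median of 14 and a range of 4 to 45. The ranges overlap, and the highest value, 45, belonged to Hoxa13, which had 1 read in all. TATAAA, the core of the TATA box, was found on either strand in 4 of the 24 Hox windows (16.7%), those of Hoxa10 (inner start), Hoxb8, Hoxd4 and Hoxd13, and in 13.6% of all windows. TGATNNAT, a form of the joint PBX and HOX site, was found on either strand in 4 Hox windows (16.7%), those of Hoxa2, Hoxb1, Hoxb8 and Hoxd11, and in 8.85% of all windows. The motifs can overlap, and the Hoxb8 window held both. A match describes the letters only. No accessibility, methylation or binding was measured in these libraries.

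Nearly all Hox RNA in 4T07 came from the HoxA cluster. Of 18181 reads on the 39 genes over the 4 libraries, 18112 (99.6%) fell on HoxA, 66 (0.363%) on HoxC, 2 on HoxD and 1 on HoxB. A gene was counted as on when it reached 1 RPKM in at least 2 libraries. By this limit 7 Hox genes were on, all of them in HoxA, among them Hoxa2, Hoxa3, Hoxa5, Hoxa6, Hoxa7 and Hoxa10. The share was 7 of 39 (17.9%), against 43.6% of all genes in the table. A further 4 genes were low, with more than 3 reads in some library but under the limit: Hoxa4, Hoxa9, Hoxc4 and Hoxc6. In 6 genes no library had more than 3 reads (Hoxa13, Hoxb9, Hoxc5, Hoxc9, Hoxd4 and Hoxd9), and in 22 genes no library had any. Those 22 were Hoxa11, 9 of the 10 HoxB genes, 5 of the 9 HoxC genes and 7 of the 9 HoxD genes.

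**Figure D1:**
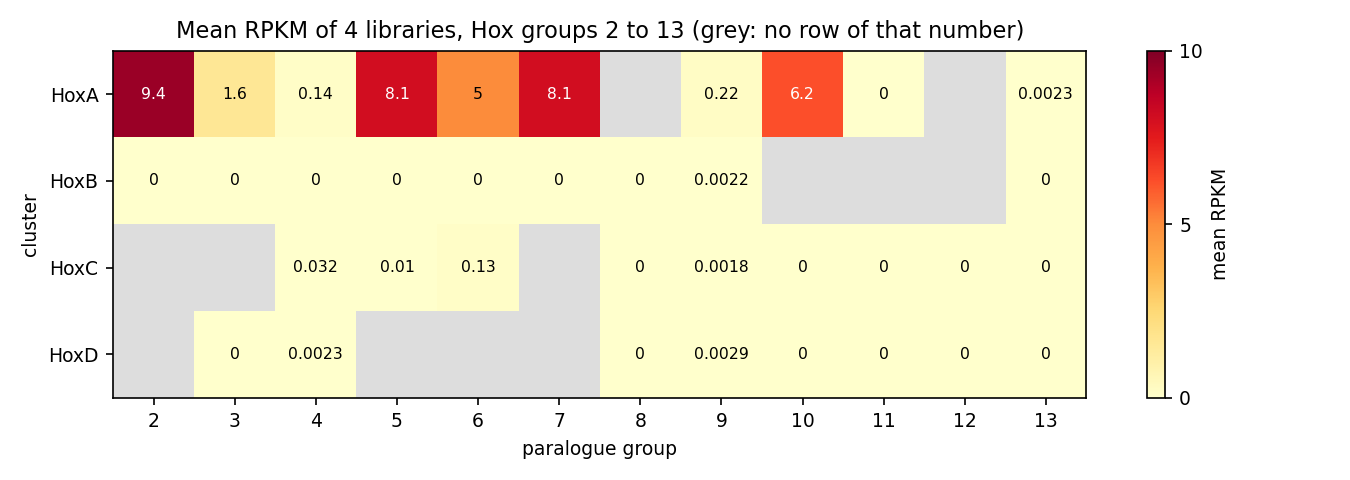
Mean RPKM over the 4 libraries of the Hox genes in paralogue groups 2 to 13, with the cluster on the vertical axis, the paralogue group on the horizontal axis and colour running linearly from 0 to 10 RPKM. Grey squares have no row in the table. Every square above 1 RPKM lies in the HoxA row, in groups 2, 3, 5, 6, 7 and 10.

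No paralogue group had more than 1 gene on, since groups such as 2, 3, 5, 6, 7 and 10 were on through their HoxA gene alone. Group 9, which has a gene in every cluster, was carried by Hoxa9 at 0.2 to 0.247 RPKM, while Hoxb9, Hoxc9 and Hoxd9 had 1 read each over the 4 libraries. Of the paralogues that act upstream of Six2 in the kidney, Hoxa11, Hoxc11 and Hoxd11 all had 0 reads in each library. Groups 12 and 13, the most posterior, had 1 read in all, on Hoxa13. Hoxb13, known for its part in prostate development, and Hoxd10, which acts in the mammary gland, were also at 0.

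The 7 Hox genes that were on all stood below the median tested gene, which had 13 RPKM as the mean of the 4 libraries. They ranged from 1.58 ± 0.197 RPKM for Hoxa3 to 9.43 ± 1.85 RPKM for Hoxa2 (SD, n = 4), the 5.44 and 40 percentiles of that level. Comparisons of level between genes are in RPKM, per length of the gene model used by the authors, a model not given in the sources used here. The shortest length that fits the RPKM steps equalled the exon length of GENCODE M21 for Hoxa2 (1775 bases) and Hoxa5 (1877 bases). For Hoxa3 it was 2543 bases, against 6014 in that annotation, and for Hoxa7 1951 against 2876. Scaled to the GENCODE lengths, an alternative added after the data were seen, Hoxa3 would lie between 0.592 and 0.77 RPKM, still the lowest of the 7 but under the limit of 1 RPKM. Hoxa7 would lie between 4.57 and 6.07 RPKM, below Hoxa10 in every library. This scaling keeps the counted reads and adds none from the extra bases. Mira, a non-coding RNA within GENCODE exons of Hoxa7, had 610 and 551 reads in the controls. It had 680 and 1075 in Six2 replicates 1 and 2. Whether Hoxa3 would stay under the limit, or Hoxa7 below Hoxa10, with reads of the extra bases added was not tested.

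Hoxa2, which sets the identity of the second branchial arch, was at 10.8 and 7.96 RPKM in control replicates 1 and 2 and at 11.2 and 7.71 RPKM in Six2 replicates 1 and 2. Its gene lies at 52162417 to 52164831 of chromosome 6. Both libraries numbered 1 were higher than both numbered 2, and the groups overlapped. Hoxa5, which acts in lung development and whose human counterpart is reported to activate p53 in breast cancer cells, was at 8.86, 8.28, 7.95 and 7.12 RPKM in the same order of libraries (52201754 to 52204587). Both controls were above both libraries labelled Six2. Hoxa7 (52214491 to 52221854), a thoracic patterning gene also known as a target of MLL fusion proteins in leukaemia, was at 8.79, 6.74, 8.94 and 7.75 RPKM, and its groups overlapped. The 3 genes exchanged places between libraries, so their order did not exceed the spread. Hoxa2 was highest in control 1 and Six2 replicate 1, Hoxa5 in control 2 and Hoxa7 in Six2 replicate 2.

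Hoxa10, needed in the uterus for implantation, was the fourth in every library on the authors' values, at 6.3, 5.4, 6.84 and 6.36 RPKM (52231197 to 52240854). Both libraries labelled Six2 were above both controls, the nearest pair being 6.3 and 6.36 RPKM. Hoxa6, a gene of the thoracic region, was at 5.14, 4.92, 5.47 and 4.58 RPKM (52206288 to 52208722), and its groups overlapped. Hoxa3, which acts in the thymus and parathyroid, was the lowest of the 7 in every library, at 1.67, 1.4, 1.82 and 1.45 RPKM (52169062 to 52213336).

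**Figure D2:**
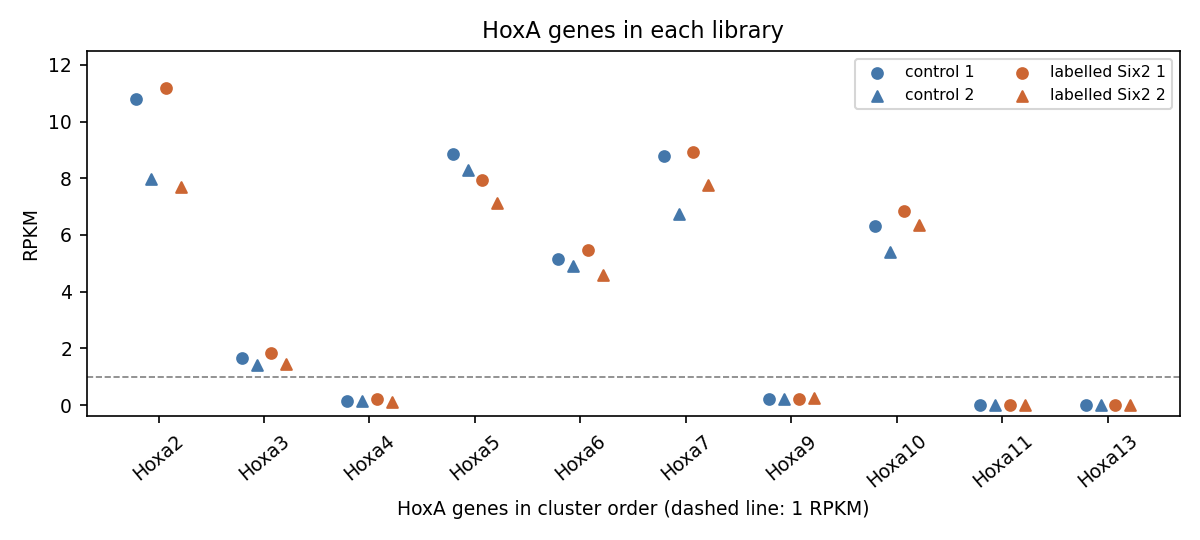
RPKM of the HoxA genes from Hoxa2 to Hoxa13 in each of the 4 libraries, in their order along the cluster, with control libraries in blue, libraries labelled Six2 in orange, circles for replicate 1 and triangles for replicate 2. The dashed line marks 1 RPKM. Hoxa4 and Hoxa9 lie near 0 between neighbours at 1.4 to 8.94 RPKM.

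The levels did not fall or rise evenly along the cluster. Hoxa4 (52189671 to 52191753) was at 0.137, 0.125, 0.197 and 0.112 RPKM, from 8 to 15 reads a library. On the authors' gene lengths, its neighbour Hoxa5 stood 40.4 to 66.2 times higher in the same library. Its other neighbour by number, Hoxa3, stood 9.25 to 12.9 times higher. On GENCODE M21 the span of Hoxa3 takes in Hoxa4. Scaled to the GENCODE lengths, Hoxa3 would lie between 0.592 and 0.77 RPKM and Hoxa4 between 0.108 and 0.189 RPKM, a smaller gap. Hoxa9, a regulator of blood progenitors and of mammary growth, was at 0.216, 0.2, 0.217 and 0.247 RPKM from 27 to 65 reads (52223100 to 52231089). Its neighbours Hoxa7 and Hoxa10 stood 31.4 to 41.2 and 25.8 to 31.5 times higher. Beyond Hoxa10 the reads stopped, with 0 on Hoxa11 and 1 on Hoxa13.

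At the limit of 1 RPKM, genes just inside included Hoxa3 and Hoxa6, and the 3 just outside were Hoxa9, Hoxa4 and Hoxc6. No Hox gene had a value between 0.247 and 1.4 RPKM in any library, so a limit of 0.5 RPKM gave the same 7. Hoxc6, which acts in thoracic and mammary development, was at 0.117, 0.075, 0.164 and 0.154 RPKM from 5 to 20 reads. Hoxc4 was at 0.0351, 0, 0.0606 and 0.0309 RPKM, and Hoxc5 at 0, 0.0262, 0.0147 and 0 RPKM, with at most 6 and 3 reads in any library. On GENCODE M21, Hoxc5 begins within Hoxc10 and shares 166 exon bases with it on the same strand, and Hoxc10 was at 0. The HoxC sum was 0.152 and 0.101 RPKM in the controls, from 11 and 8 reads. It was 0.239 and 0.192 RPKM in Six2 replicates 1 and 2, from 21 and 26 reads.

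The comparison of the groups asked whether Hox expression differed between control cells and cells labelled as overexpressing Six2. The HoxA cluster as a whole was at 45.4 and 40.2 RPKM in the controls and at 44.8 and 39 RPKM in Six2 replicates 1 and 2, or 42.8 ± 3.69 against 41.9 ± 4.12 (SD, n = 2). The difference in the sums, -0.94 RPKM, lay within the spread of each group. It became 1.67 RPKM with control 1 left out and 1.97 RPKM with Six2 replicate 2 left out. With control 2 or Six2 replicate 1 left out it was -3.55 and -3.85 RPKM, so its sign changed with the library left out. Leaving out 1 library also unbalances the replicate numbers. Within each replicate number the sum was lower in the library labelled Six2, at 44.8 against 45.4 RPKM and 39 against 40.2 RPKM. With relative log expression factors in place of the read totals, the difference between the groups was 0.271 RPKM.

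None of the 7 tested Hox genes passed the test in either direction. The test was limma-trend on log2(RPKM + 1), two-sided, with Benjamini-Hochberg adjustment over the 10654 genes that were on by the limit above, and a threshold of 0.05. It called 12 genes, 0.113% of those tested, with 3 higher (0.0282%) and 9 lower (0.0845%) in the libraries labelled Six2. At an unadjusted p under 0.05 the count was 0 of 7 Hox genes and 1813 of all genes, and voom on the recovered reads also called 0 Hox genes. Groups did not overlap for 2 of the 7 Hox genes, Hoxa5 (lower) and Hoxa10 (higher), against 47.4% of all tested genes. The median absolute log2 difference was 0.0994 for the 7 Hox genes and 0.165 for all tested genes.

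Hoxa5 was at 8.57 ± 0.41 RPKM against 7.53 ± 0.591 RPKM, a log2 difference of -0.17 with a 95% interval of -0.47 to 0.14 (adjusted p 0.524, limma-trend). Hoxa10 was at 5.85 ± 0.638 RPKM against 6.6 ± 0.339 RPKM, a log2 difference of 0.15 with a 95% interval of -0.18 to 0.48 (adjusted p 0.597, limma-trend). The groups did not overlap for either gene, and both intervals include 0. Hoxa7 had a log2 difference of 0.10 with a 95% interval of -0.34 to 0.54 (adjusted p 0.809). For Hoxa3 the log2 difference was 0.05 with an interval of -0.34 to 0.45 (adjusted p 0.893).

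Hoxa2 and Hoxa6 had the smallest log2 differences of the 7, 0.002 and -0.005 (adjusted p 0.997 and 0.991, limma-trend). For Hoxa2 the interval of the log2 difference ran from -0.63 to 0.63, and replicate 2 lay below replicate 1 by 0.40 in the controls and by 0.49 in the libraries labelled Six2. For Hoxa6 it ran from -0.35 to 0.34, and the small negative difference became 0.03 with relative log expression factors and 0.083 with chromosome medians removed. Within replicate numbers 1 and 2, the Hoxa2 difference was 0.05 and -0.04. These intervals come from the fit without a replicate block, and differences anywhere within them remain compatible with the values. Among genes under the limit, Hoxa4, Hoxa9 and Hoxc6 could be fitted with a limit of 0.1 RPKM and had log2 differences of 0.03, 0.03 and 0.08, with adjusted p of 0.893, 0.883 and 0.637 in limma-trend. That scale compresses differences of genes so far below 1 RPKM.

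**Figure D3:**
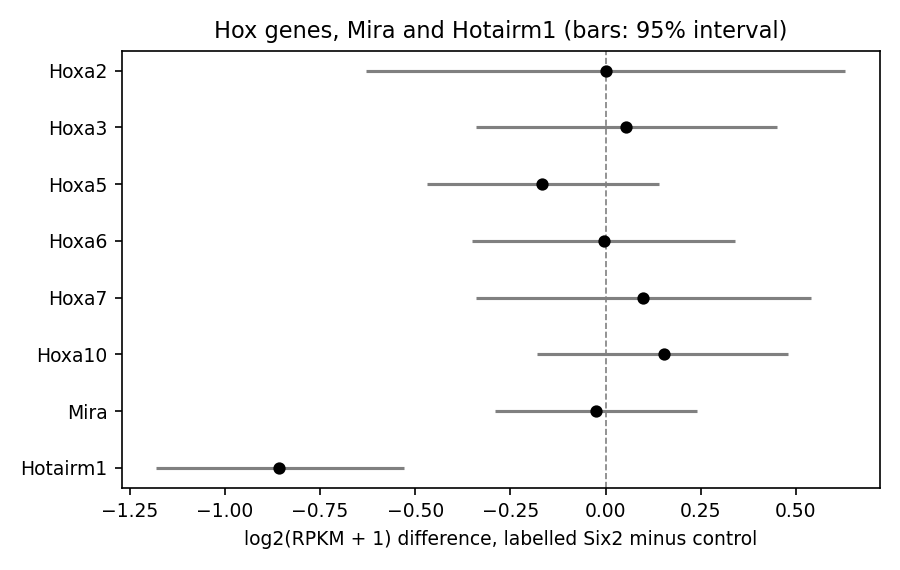
Difference in log2(RPKM + 1), libraries labelled Six2 minus control, of Hox genes that were on and of Mira and Hotairm1, with 95% intervals from limma-trend (n = 2 a group). The plotted intervals of the Hox genes and of Mira include 0, and that of Hotairm1 runs from -1.18 to -0.53.

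Transcripts that do not code for protein also run through the clusters, and 16 of their rows were examined. Hotairm1 and Mira were on, and neither passed the test. Hotairm1, an antisense RNA of the HoxA cluster known from myeloid differentiation, lies on the plus strand of chromosome 6. Its level was 19.3 and 16.4 RPKM in the controls (211 and 174 reads) and 9.58 and 9.21 RPKM in Six2 replicates 1 and 2 (121 and 190 reads). The groups did not overlap. The means were 17.9 ± 2.07 and 9.4 ± 0.262 RPKM (SD, n = 2), a ratio of 0.525 and a log2 difference of -0.86 with an SE of 0.12. The adjusted p was 0.105 in limma-trend, above the threshold, and lay between 0.094 and 0.367 in the alternatives without a replicate block.

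Some exon bases of Hotairm1 lie opposite those of another gene. The kit keeps the strand of the RNA, but the strand setting of the counting is not given in the sources used here. In such bases, reads of either strand cannot be told apart. The shortest length that fits the RPKM steps of Hotairm1 was 253 bases, against 1025 exon bases in GENCODE M21, and its reads are the fewest that fit. Its log2 difference was -0.94 within replicate number 1 and -0.77 within replicate number 2.

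**Figure D4:**
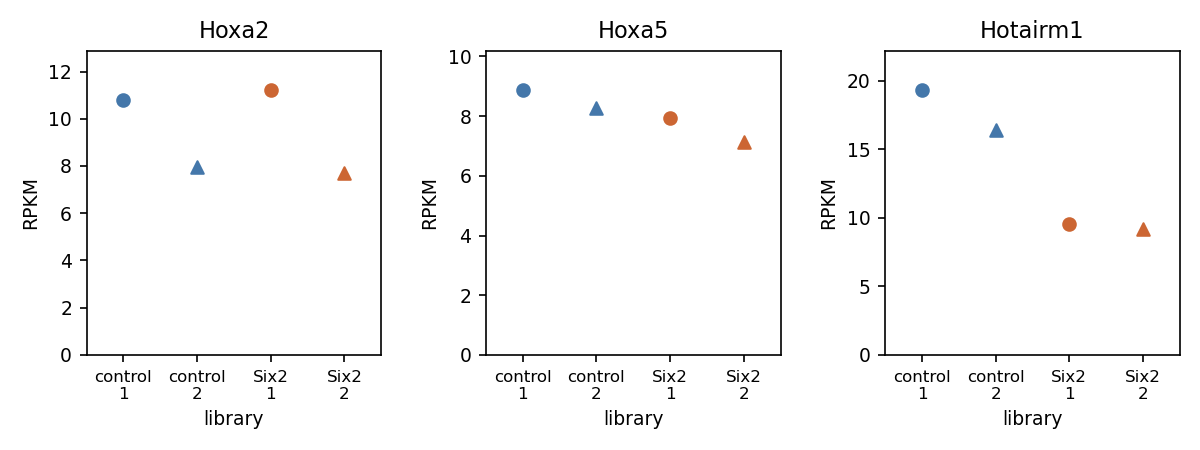
RPKM of Hoxa2, Hoxa5 and Hotairm1 in each library, with axes that start at 0, control libraries in blue, libraries labelled Six2 in orange, circles for replicate 1 and triangles for replicate 2. Hoxa2 separates by replicate number, with 10.8 and 11.2 RPKM in the libraries numbered 1, while Hoxa5 and Hotairm1 are lower in both libraries labelled Six2.

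Mira, an RNA reported to help switch on Hoxa6 and Hoxa7 in mouse stem cells, was at 17.8, 16.5, 17.1 and 16.5 RPKM. Its log2 difference was -0.02 with an SE of 0.10 (adjusted p 0.932, limma-trend), and it became 0.015 with relative log expression factors. RefSeq places all 798 bases of Mira (chromosome 6, 52214491 to 52215288, minus strand) within exons of Hoxa7 in GENCODE M21. On that annotation reads there could belong to either gene. The deposited values count reads on Mira separately, and the shortest fitting length of Hoxa7 was 1951 bases against 2876 in GENCODE. Whether the authors' model of Hoxa7 holds the bases of Mira is not given in the sources used here. The other antisense rows were low: Hoxaas2 lay between 0.125 and 0.152 RPKM and Hoxaas3 between 0.111 and 0.288 RPKM. On the opposite strand these share exon bases with Hoxa3 (800 in all) and, for Hoxaas3, with Hoxa7 (586). Hotair, the HoxC RNA known for its association with Polycomb, and Hottip, at the posterior end of HoxA, were at 0 in all 4 libraries. Of the microRNA rows, Mir196b had 1 read and Mir10a, Mir10b, Mir196a-1, Mir196a-2 and Mir615 had 0. The preparation selects polyadenylated RNA, so mature microRNAs were not measured.

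Genes known to act with the Hox proteins or on their clusters were counted in lists, together with the genes beside the clusters and the non-coding rows within them, and 78 of these genes were tested. None passed in limma-trend and voom called 0. An unadjusted p under 0.05 was found for 13 of the 78, against 17% of all tested genes. The 10 tested TALE cofactors had a median log2 difference of -0.09, with 4 above 0 and 6 below, against -0.01 for all tested genes. Tgif1, a TALE repressor and the most abundant of them, was at 65.5, 65.7, 48.9 and 53.7 RPKM (log2 difference of -0.35 with an adjusted p of 0.206). Pbx2, a direct partner of HOX proteins, was at 23.2, 22.5, 18.1 and 18.3 RPKM (log2 difference of -0.32 with an adjusted p of 0.218). Groups did not overlap for 4 of the 10, near the 47.4% of all tested genes. Meis1, another partner of HOX proteins, was on at 2.43 to 3.07 RPKM and was named after its values were seen.

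Among the silencing complexes, the 11 tested genes of Polycomb repressive complex 2 had a median log2 difference of 0.05, with 7 above 0 and 4 below. Its histone-binding subunits Rbbp7 and Rbbp4 were the most abundant, at 187 to 208 and 75 to 81.2 RPKM, with log2 differences of 0.03 and -0.06. Ezh2, the methyltransferase of the complex, was named after its values were seen. It was at 29.9 and 35.3 RPKM in the controls and at 43.5 and 43.8 RPKM in Six2 replicates 1 and 2 (log2 difference 0.41, adjusted p 0.214, limma-trend). The 18 genes of complex 1 had a median of -0.12, with 8 above 0 and 10 below, and 11 of the 18 had groups that did not overlap, against 47.4% of all tested genes. Phc2 was at 101 to 137 RPKM and Cbx6 at 29.3 to 43.6 RPKM, with log2 differences of -0.13 and 0.15.

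The list of Trithorax genes and demethylases that oppose Polycomb held 16 genes. Its median log2 difference was 0.10, with 12 above 0 and 4 below. It also holds Ctcf, Dot1l, Kat6a and Kat6b, which are neither demethylases nor subunits of the Trithorax methyltransferase complexes. Their log2 differences were 0.173, 0.342, 0.075 and 0.065, all among the 12 above 0. Dpy30, a subunit of the methyltransferase complexes, was at 53.5, 64.9, 49.9 and 57.9 RPKM. Psip1, which tethers MLL proteins to chromatin, was at 53.8, 60.4, 48.8 and 57.1 RPKM. The log2 differences of these were -0.13 and -0.11, below 0 unlike most of the list. The smallest adjusted p of the list was 0.238.

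Only 5 of 17 genes of the retinoic acid and caudal inputs were tested, and all 5 had a negative difference, with a median of -0.30 and a smallest adjusted p of 0.203. Rarg, a retinoic acid receptor, was at 60.8, 69.8, 45.1 and 50.3 RPKM (log2 difference of -0.44 with an adjusted p of 0.203), and its groups did not overlap. The caudal genes Cdx1 and Cdx2 were at 0, and Cdx4 had 1 read, in Six2 replicate 2.

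Of 10 genes reported as HOX targets, 4 were tested, with 2 differences above 0 and 2 below and a median of -0.01. Epha2, a receptor tyrosine kinase of the Eph family, was at 74.7, 99, 69.6 and 90.5 RPKM (log2 difference -0.11). Itga8, an integrin reported under Hoxa11 control in the kidney, was at 26.2, 16.7, 29.7 and 17.1 RPKM (log2 difference 0.10) while Hoxa11 had 0 reads. Both varied more by replicate number than by group. Itgb3, an integrin named after its values were seen, had the one large difference of the list, which the median does not show. It was at 32.6 and 16.1 RPKM in the controls and at 12 and 4.88 RPKM in Six2 replicates 1 and 2 (log2 difference of -1.46 with an adjusted p of 0.28, limma-trend), and it did not pass. The list of Evx and ParaHox genes, which leaves out the caudal genes, held 5 relatives of the Hox genes. They include the genes beside Hoxa13 and Hoxd13, and each had 0 reads in all 4 libraries.

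**Figure D5:**
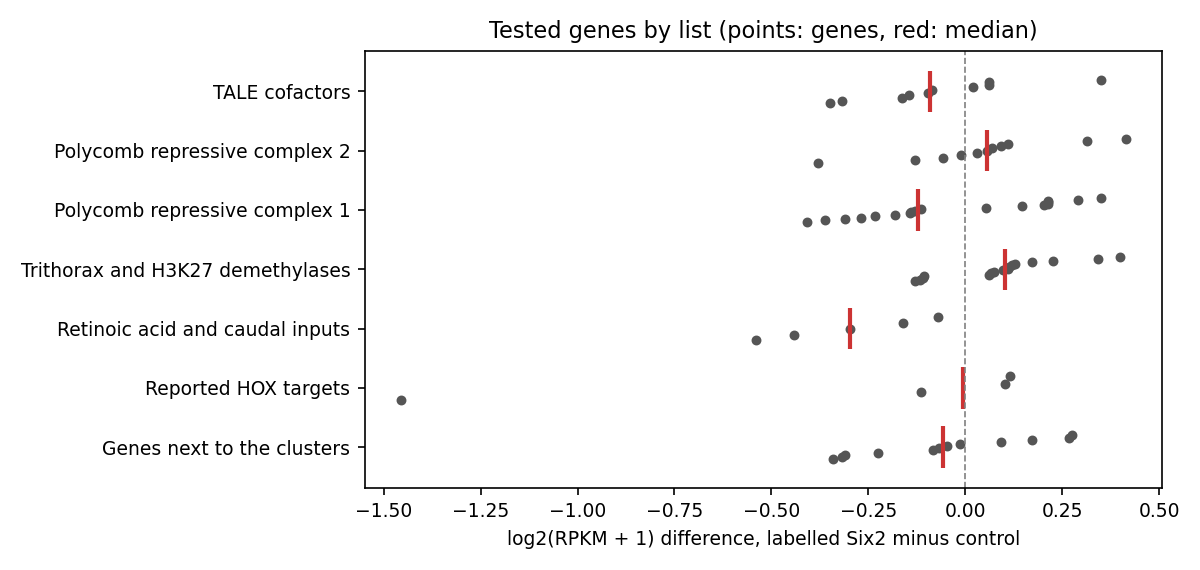
Difference in log2(RPKM + 1), libraries labelled Six2 minus control, of each tested gene in the lists related to the Hox genes, with 1 point a gene and the list's median in red. The plotted medians lie between -0.30 (retinoic acid and caudal inputs) and 0.10 (Trithorax and H3K27 demethylases), and no point passed the test.

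Each cluster had at least 1 expressed gene near it. Of 15 such genes in the table, 12 were tested and none passed, with 4 differences above 0, 8 below and a median of -0.06. Beside HoxA, Skap2 was at 7.92 to 13.9 RPKM, Hibadh at 25.8 to 27.8 RPKM and Tax1bp1 at 36.2 to 51.8 RPKM. Beside HoxB, where the whole cluster had 1 read, Snx11 was at 3.41 to 5.62 RPKM. The other HoxB neighbours were at or near 0, with no reads on Skap1, at most 0.0941 RPKM for Calcoco2 and 1 read in all on Ttll6. Beside HoxC, Smug1 was at 3.73 to 4.26 RPKM, Cbx5 at 24.9 to 29.1, Hnrnpa1 at 13.2 to 14.4, Calcoco1 at 16 to 35.9 and Atp5g2 at 253 to 312 RPKM. Beside HoxD, Lnp was at 2.41 to 3.84 RPKM, Mtx2 at 39.2 to 43.1 and Atp5g3 at 242 to 316 RPKM.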

How the data were processed

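RNA-seq of 2 control and 2 Six2 libraries, grouped by their titles, was analysed. The authors deposited RPKM values. Tools named in the submitters' processing notes are HTSeq 0.8.0, TopHat2 2.1.1, Picard 2.9.4, Bowtie2, SAMtools 1.5, FastQC 0.11.5 and bcl2fastq 1.8.4, with the builds GRCm38 and mm10. The kit was TruSeq Stranded mRNA, per the labels' protocols. No gene annotation, gene length, strand setting or rule for shared reads is given in the sources used here.

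Read totals of 43110985, 41881864, 49910629 and 81524250 (controls, then Six2) were recovered from the RPKM steps. Each of the 14459 genes detected in 3 or 4 libraries came out at whole reads within 0.001, although a factor common to reads and length cannot be seen, so reads may be understated.

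limma 3.58.1 in R 4.3.3 fitted log2(RPKM + 1) on group, with variances following a trend on expression (limma-trend), for genes with at least 1 RPKM in 2 libraries, after a check on simulated data. The pseudocount of 1 understates differences of low genes. Alternatives changed the pseudocount, filter, scaling, test, replicate block and libraries. Positions are from GENCODE M21, and promoters from RefSeq.

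The Hox genes and lists were chosen with earlier results of these data known. Named were the Hox genes that were on, the 5 highest under the limit, the 3 on either side of it, Six2, the 2 most abundant genes of each list without a call, expressed rows inside the clusters and expressed genes beside them. A few genes covered by this rule are not reported here. Other names were chosen after their values were seen. Protein sequences were not analysed here.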

Additional observations from a re-analysis of the deposited data

How the results depend on the processing

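Of the alternatives, only the replicate block called a Hox gene: with replicate number as a term in the model 1 of 7 passed in limma. The block also called 30 of 78 list genes against 0 without it, 4639 of all genes against 12, and Hotairm1 (adjusted p 0.000125). Across 10654 genes the replicate differences of both groups correlated at r = 0.818, so libraries of the same number varied together. What the numbers mark is not said in the labels, and there are only 2 pairs. Without a low-value filter 0 genes passed in limma-trend (2503 at unadjusted p under 0.05), and with relative log expression factors 28. Calls over all genes were 11 with control 1 left out, 31 with control 2, 35 with Six2 replicate 1 and 68 with Six2 replicate 2, and Hox and list genes had 0 calls each time. Some uncalled log2 differences near 0 changed sign. With voom, Hoxa2 was -0.034. With relative log expression factors Hoxa6 was 0.03 and Mira 0.015, and with chromosome medians removed they were 0.083 and 0.063. With 1 library left out, Hoxa2 ran from -0.241 to 0.245, Hoxa3 from -0.048 to 0.156, Hoxa6 from -0.112 to 0.103, Hoxa7 from -0.069 to 0.268 and Mira from -0.074 to 0.025. The cause of these changes was not tested. The other 93 single-gene values kept their direction and side of the threshold. The HoxA sum difference ran from -3.85 to 1.97 RPKM with 1 library left out. The number of Hox genes on was 7 at 0.5 RPKM, 6 at 2 RPKM, 10 at 0.1 RPKM, 7 with any library left out and 6 on GENCODE exon lengths, an alternative chosen after seeing the data. The GENCODE alternative rescaled the counted reads and added none from the extra bases. With 2 libraries a group, differences anywhere inside the 95% intervals given remain compatible with the values, and a gene at 0 may hold up to 3 reads.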
